A study of Mus musculus with 12 samples.

Results

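The genes described here encode the phagocyte NADPH oxidase and enzymes that clear superoxide and hydrogen peroxide. There are 9 of them, of 21834 genes in the deposited table, and the rule that chose them lists their names. The list was drawn up with earlier results of these data known. Cybb and Cyba encode the membrane subunits of the oxidase, Ncf1 and Ncf4 cytosolic subunits, Rac1 and Rac2 small GTPases that switch it on, and Sod1, Sod2 and Cat (catalase) enzymes that remove superoxide and hydrogen peroxide. RNA was measured by RNA-seq in BV2 cells, an immortalised mouse microglial line. The cells stably expressed a short hairpin RNA, either the control hairpin (shCtrl) or one directed at Anxa2 (shAnxa2). Each line was left untreated (CTRL) or put through oxygen-glucose deprivation and reoxygenation (OGD/R), which models stroke and reperfusion in culture. Per the labels, OGD/R was 4 h of deprivation and 12 h of reoxygenation. The 4 groups, shCtrl-CTRL, shCtrl-OGDR, shAnxa2-CTRL and shAnxa2-OGDR, held 3 libraries each. All 12 libraries came from cells transduced with lentivirus and selected with puromycin. Each shRNA was represented by 1 stable line, so the knockdown cannot be told apart from other differences between the lines.

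In resting phagocytes the membrane and cytosolic parts of the oxidase are kept apart. On activation, kinases phosphorylate the cytosolic subunits, these move to the membrane together with GTP-bound Rac, and the assembled enzyme passes electrons from NADPH to oxygen to give superoxide. Superoxide dismutases turn superoxide into hydrogen peroxide, which catalase, glutathione peroxidases and peroxiredoxins remove. Microglia are a main source of superoxide from this oxidase in the brain. Much of its control lies in assembly and phosphorylation, and RNA levels do not report on those.

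Total counts per library ran from 19521877 to 27288843, and every library lay nearer to its own group than to any other. Anxa2 RNA followed the line named in the sample titles. Its counts were 3938, 4744 and 4806 in shCtrl-CTRL, 6414, 7717 and 5685 in shCtrl-OGDR, 715, 922 and 1052 in shAnxa2-CTRL, and 357, 505 and 425 in shAnxa2-OGDR. No library of either shAnxa2 group reached a library of the shCtrl groups. A second label field, named cell type, calls both untreated groups WT and both OGD/R groups knockdown, which the Anxa2 counts contradict. The field named genotype holds the treatment and not the line. The treatment field follows the titles, and no such check on a gene was made for it. An exchange of treatment labels within 1 line would reverse the sign of every OGD/R change in that line, and this was not tested. Of 10 microglial markers, 10 were at 1 CPM (counts scaled to library size) or more on average, and their summed level ran from 1445.3 to 1820.2 CPM over the libraries. The homeostatic markers P2ry12, Tmem119 and Cx3cr1 were low, with means of 2.09, 5.65 and 4.24 CPM, and so was Aif1, with 4.20 CPM. Itgam stood at 14.1 CPM and Csf1r at 485 CPM. Astrocyte markers summed to at most 0.382 CPM and neuron markers to at most 0.918 CPM, with Aqp4, Snap25 and Syt1 at 0. Oligodendrocyte markers summed to between 3.97 and 6.30 CPM, nearly all from Mbp, with Mog at 0. The library shAnxa2-OGDR replicate 1 stood apart in Lars2, with 66525 counts against 389 to 2670 in the other 11 libraries.

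The 9 genes lie on 7 chromosomes. In the deposited table, whose build is mm39 per the submitters' processing notes, Cybb spans chrX:9301491-9354010, Cyba chr8:123151515-123159669, Ncf1 chr5:134248907-134258479 and Rac1 chr5:143489389-143513791. Ncf4 and Rac2 are both on chromosome 15, at chr15:78129001-78146780 and chr15:78443367-78456983. Sod1 spans chr16:90017642-90023217, Sod2 chr17:13225733-13258950 and Cat chr2:103284194-103315505. Ncf4, Sod1 and Sod2 are on the plus strand and the other 6 genes on the minus strand. The counts cover the exons of the whole gene and do not separate transcripts.

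Promoter sequences were found for 6 of the 9 genes (Cybb, Cyba, Ncf1, Sod1, Sod2 and Cat) in a RefSeq table of build GRCm38.p6, and the 250 bases before the start site were read. Those of Cybb and Sod2 are shown because, of these 6, they changed most with OGD/R in shCtrl cells, and that of Sod1 because it did not pass the test for OGD/R in either line. Capitals mark a match to CCAAT (33.8% of 32851 promoters of the same length hold one), TATAAA (12.4%), GAGGAA, the core bound by the myeloid factor encoded by Spi1 (23.3%), TGACNNNGC, the core of the antioxidant response element (10.2%), or the kappaB consensus (7.3%). ACGTG, the core of the hypoxia response element (16.6%), was also searched. Both strands were searched, and a match on the minus strand appears as its reverse complement.
Cybb, chrX:9469325-9469574, minus strand: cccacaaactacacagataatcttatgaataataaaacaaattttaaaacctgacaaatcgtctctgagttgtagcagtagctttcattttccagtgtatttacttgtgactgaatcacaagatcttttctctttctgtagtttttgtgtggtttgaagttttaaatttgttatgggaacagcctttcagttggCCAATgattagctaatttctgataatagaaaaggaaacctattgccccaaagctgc
Sod2, chr17:13007589-13007838, plus strand: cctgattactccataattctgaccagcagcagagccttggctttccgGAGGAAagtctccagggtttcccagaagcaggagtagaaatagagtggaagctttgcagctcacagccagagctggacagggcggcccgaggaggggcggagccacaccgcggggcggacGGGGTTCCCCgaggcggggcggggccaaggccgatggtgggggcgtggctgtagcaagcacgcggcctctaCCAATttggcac
Sod1, chr16:90220512-90220761, plus strand: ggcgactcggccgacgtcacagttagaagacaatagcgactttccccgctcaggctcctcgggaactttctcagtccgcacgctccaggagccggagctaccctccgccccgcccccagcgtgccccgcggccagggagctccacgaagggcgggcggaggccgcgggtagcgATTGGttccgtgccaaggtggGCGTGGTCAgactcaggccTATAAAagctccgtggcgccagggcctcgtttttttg
Counted back from the start site, Cybb held CCAAT at -56 to -52. Sod2 held GAGGAA at -203 to -198, a kappaB match at -83 to -74 that reads on both strands, and CCAAT at -12 to -8. Sod1 held CCAAT on the minus strand at -77 to -73, TGACNNNGC on the minus strand at -56 to -48 and TATAAA at -37 to -32. The Cybb promoter had a G and C content of 34.0%, and only 3.9% of promoters were lower. The content was 63.6% in Sod2 and 66.4% in Sod1, against a median of 52.4% over all promoters. Cat, not printed, held 4 matches to CCAAT and a kappaB match at -116 to -107. It also held GAGGAA at -235 to -230, which overlaps by its last base the CCAAT match on the minus strand at -230 to -226. Cybb held no match to the motifs other than CCAAT, and Cyba and Ncf1 held no match to any of the 6. A match describes these letters and was not tested as a binding site.

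Cybb, the catalytic subunit of the oxidase, changed most of the 9 genes. Its counts were 8514, 8637 and 8576 in shCtrl-CTRL and 27002, 27093 and 19466 in shCtrl-OGDR. They were 14123, 14020 and 15538 in shAnxa2-CTRL and 6157, 7130 and 5016 in shAnxa2-OGDR. Scaled to library size, the level was 329 ± 23.0 CPM (SD, n = 3) in shCtrl-CTRL, 1029 ± 29.8 in shCtrl-OGDR, 661 ± 38.6 in shAnxa2-CTRL and 280.2 ± 35.5 in shAnxa2-OGDR. No group overlapped the next in this order. OGD/R raised Cybb 3.13-fold in shCtrl cells (log2 change 1.65, 95% interval 1.502 to 1.788, adjusted p = 1.3e-15 by the quasi-likelihood test of edgeR, used throughout). In shAnxa2 cells the same treatment lowered it, by a log2 change of -1.24 (-1.38 to -1.10, adjusted p = 9.02e-13). Untreated shAnxa2 cells had 2.01-fold the level of untreated shCtrl cells (adjusted p = 9.2e-12), and after OGD/R the order of the lines was turned, with a log2 difference of -1.88 (-2.02 to -1.73, adjusted p = 9.18e-17). Of all genes tested, 98.2% changed less than Cybb with OGD/R in the shCtrl line and 97.8% in the shAnxa2 line. Without shAnxa2-OGDR replicate 1, the library with high Lars2, the fall of Cybb in shAnxa2 cells was -1.33 and its interaction, described further on, -2.97. In RNA from whole cultures, a change in the share of cells that express a gene and a change in RNA per cell cannot be told apart.

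**Figure D1:**
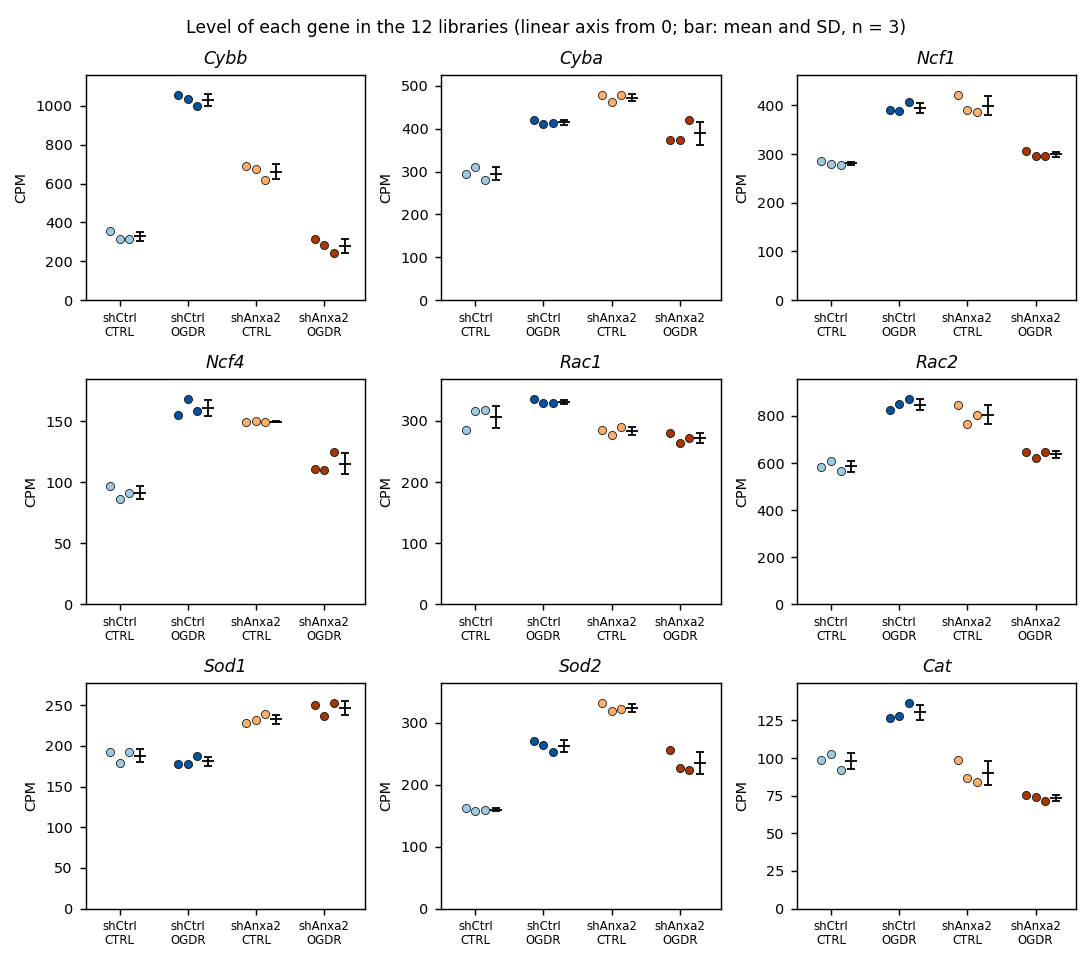
Level of the 9 genes in CPM (linear axes from 0) in the 12 libraries, by group. Points are libraries, the bar beside them is the mean and SD (n = 3). Cybb is highest in shCtrl-OGDR (1029 CPM), and Sod1 is higher in both shAnxa2 groups (233 and 246 CPM) than in both shCtrl groups (188 and 181 CPM).

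Cyba, the partner that holds the catalytic subunit in the membrane, moved in the same directions by less. Its level was 295 ± 14.8 CPM in shCtrl-CTRL, 415 ± 5.45 in shCtrl-OGDR, 473 ± 9.28 in shAnxa2-CTRL and 389 ± 26.8 in shAnxa2-OGDR. OGD/R raised Cyba 1.40-fold in shCtrl cells (log2 change 0.49, SE 0.052, adjusted p = 1.28e-08) and lowered it in shAnxa2 cells (log2 change -0.28, SE 0.052, adjusted p = 5.99e-05). The highest level was thus in untreated shAnxa2 cells, where Cybb was only second. After OGD/R the libraries of the 2 lines overlapped, and the difference of -0.09 (95% interval -0.20 to 0.01) did not pass the test (adjusted p = 0.113). It passed with library totals as the only scaling (adjusted p = 0.0367) and with upper-quartile scaling (adjusted p = 0.0292). It passed too when shAnxa2-OGDR replicate 3 was left out, with a difference of -0.16.

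Ncf1, the organiser subunit that is phosphorylated on activation, had counts of 6830, 7608 and 7576 in shCtrl-CTRL, 9970, 10156 and 7939 in shCtrl-OGDR, 8616, 8118 and 9723 in shAnxa2-CTRL, and 6000, 7476 and 6107 in shAnxa2-OGDR. In CPM, shAnxa2-CTRL (399 ± 19.1) and shCtrl-OGDR (395 ± 10.4) overlapped at the top, followed by shAnxa2-OGDR (299.7 ± 5.50) and shCtrl-CTRL (281 ± 3.85), which did not overlap. With OGD/R it changed by 0.49 on the log2 scale (SE 0.047, adjusted p = 2.47e-09) in shCtrl cells and -0.41 (SE 0.047, adjusted p = 9.02e-08) in shAnxa2 cells. Ncf4, the cytosolic subunit that binds a phosphoinositide of the phagosome membrane, had a level of 91.6 ± 5.50 CPM in shCtrl-CTRL, 161 ± 6.64 in shCtrl-OGDR, 149.9 ± 0.358 in shAnxa2-CTRL and 116 ± 8.36 in shAnxa2-OGDR, and none of these groups overlapped. It rose 1.76-fold in shCtrl cells after OGD/R (log2 change 0.81, SE 0.054, adjusted p = 3.76e-12), the second largest rise of the 9 after Cybb, and fell in shAnxa2 cells (log2 change -0.38, SE 0.054, adjusted p = 2.49e-06). Between the lines, both Ncf1 and Ncf4 were higher in shAnxa2 cells when untreated (log2 differences 0.51 and 0.71) and lower after OGD/R (-0.40 and -0.48, adjusted p = 6.54e-08 and 2.6e-08).

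Rac2, the GTPase of blood and myeloid cells, had counts of 13942, 16630 and 15371 in shCtrl-CTRL, 21073, 22246 and 17001 in shCtrl-OGDR, 17324, 15875 and 20293 in shAnxa2-CTRL, and 12654, 15601 and 13298 in shAnxa2-OGDR. It rose after OGD/R in shCtrl cells (log2 change 0.53, SE 0.047, adjusted p = 5.98e-10) and fell in shAnxa2 cells (log2 change -0.34, SE 0.047, adjusted p = 1.7e-06). In CPM, shCtrl-OGDR (848 ± 23.4) and shAnxa2-CTRL (805 ± 41.6) overlapped, while shAnxa2-OGDR (637 ± 14.6) and shCtrl-CTRL (585 ± 22.4) stood apart from each other and from these. Rac1, which is expressed in nearly every cell type, varied little. It stood at 306 ± 18.5 CPM in shCtrl-CTRL, 331 ± 3.62 in shCtrl-OGDR, 284 ± 6.73 in shAnxa2-CTRL and 272 ± 7.84 in shAnxa2-OGDR. Its rise after OGD/R in shCtrl cells was at the limit of the test (log2 change 0.11, 95% interval 0.01 to 0.21, adjusted p = 0.0485) and was lost in 9 of the alternatives, among them that without shCtrl-CTRL replicate 1, where the change was 0.06 (adjusted p = 0.328). In shAnxa2 cells the change was -0.06 (-0.17 to 0.04, adjusted p = 0.287). After OGD/R, Rac1 was lower in the shAnxa2 line (log2 difference -0.29, SE 0.049, adjusted p = 1.75e-05).

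Divided by the length of the exons in kb, the share of Rac2 in the sum of Rac1 and Rac2 was 72.5% ± 1.37 in shCtrl-CTRL, 78.0% ± 0.644 in shCtrl-OGDR, 79.7% ± 0.676 in shAnxa2-CTRL and 76.4% ± 0.227 in shAnxa2-OGDR (SD, n = 3). No group overlapped another. The gap of 5.42 percentage points between treated and untreated shCtrl cells and of -3.26 between those of the shAnxa2 line each had p = 0.1 in a two-sided exact permutation test, which is the smallest value that 3 against 3 libraries allow.

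Sod1 encodes the copper and zinc dismutase of the cytosol. Its counts were 4615, 4886 and 5235 in shCtrl-CTRL, 4554, 4675 and 3662 in shCtrl-OGDR, 4666, 4821 and 6020 in shAnxa2-CTRL, and 4899, 5959 and 5203 in shAnxa2-OGDR. In CPM the treated and untreated libraries of each line overlapped. With OGD/R the log2 level moved by -0.05 in shCtrl cells (95% interval -0.15 to 0.05, adjusted p = 0.346) and 0.08 in shAnxa2 cells (-0.02 to 0.18, adjusted p = 0.162). Neither passed the test, and both intervals lie within 0.18 of 0. Sod1 instead differed between the lines. It was 1.24-fold higher in shAnxa2 cells when untreated (adjusted p = 5.5e-06) and 1.36-fold higher after OGD/R (adjusted p = 1.41e-08), with no overlap in either case. It was the only one of the 9 genes that was higher in shAnxa2 cells after OGD/R.

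Sod2 encodes the manganese dismutase of mitochondria, a known target of NF-κB. Its counts were 3906, 4301 and 4333 in shCtrl-CTRL, 6927, 6914 and 4926 in shCtrl-OGDR, 6783, 6648 and 8126 in shAnxa2-CTRL, and 5011, 5715 and 4605 in shAnxa2-OGDR. The highest level was in shAnxa2-CTRL (325 ± 6.13 CPM), followed by shCtrl-OGDR (262 ± 9.38) and shAnxa2-OGDR (235 ± 17.7), which overlapped, and the lowest in shCtrl-CTRL (160.0 ± 2.85). OGD/R raised Sod2 1.64-fold in shCtrl cells (log2 change 0.71, SE 0.052, adjusted p = 1.85e-11) and lowered it in shAnxa2 cells (log2 change -0.47, SE 0.051, adjusted p = 5.79e-08). Untreated shAnxa2 cells had 2.03-fold the level of untreated shCtrl cells (adjusted p = 4.62e-14), the largest difference between untreated lines among the 9 genes. After OGD/R the difference was -0.16 (adjusted p = 0.0093), although the libraries overlapped.

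Cat, which breaks down hydrogen peroxide in peroxisomes, stood at 98.0 ± 5.40 CPM in shCtrl-CTRL, 130.4 ± 5.15 in shCtrl-OGDR, 89.9 ± 7.89 in shAnxa2-CTRL and 73.5 ± 1.86 in shAnxa2-OGDR. The shCtrl-OGDR libraries were the highest and the shAnxa2-OGDR libraries the lowest, and the untreated groups overlapped between them. Cat rose 1.33-fold after OGD/R in shCtrl cells (adjusted p = 8.8e-07) and fell in shAnxa2 cells (log2 change -0.29, SE 0.059, adjusted p = 0.000211). The untreated lines differed by -0.13, which did not pass the test (adjusted p = 0.0638) unless shCtrl-CTRL replicate 3 or shAnxa2-CTRL replicate 1 was left out (-0.16 and -0.20). After OGD/R, Cat was lower in shAnxa2 cells by 0.83 on the log2 scale (log2 difference -0.83, SE 0.058, adjusted p = 7.28e-12), second only to Cybb.

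Sod2 made up 7.49% ± 0.143 of the summed per-kb level of Sod1, Sod2 and Cat in shCtrl-CTRL, 11.7% ± 0.671 in shCtrl-OGDR, 12.01% ± 0.305 in shAnxa2-CTRL and 8.71% ± 0.559 in shAnxa2-OGDR. The 2 higher groups overlapped each other, and no other pair did. Each of the 4 comparisons had p = 0.1 in the two-sided exact permutation test, the smallest possible. The level of this share depends on the exon lengths, 5977 bases for Sod2 and 641 for Sod1. Taken from counts, the share was 35.9% in shCtrl-CTRL.

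**Figure D2:**
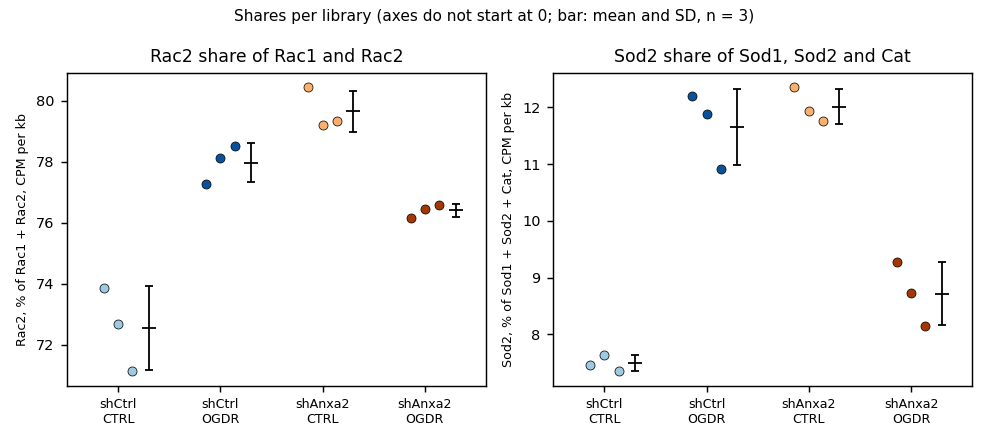
Left, Rac2 as a percentage of Rac1 plus Rac2. Right, Sod2 as a percentage of Sod1, Sod2 and Cat, both from CPM per kb of exon (the axes do not start at 0). Points are the 12 libraries, bars the mean and SD (n = 3). Both shares are lowest in shCtrl-CTRL (72.5% and 7.49%) and highest in shAnxa2-CTRL (79.7% and 12.01%).

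Between genes, levels can be compared only per length. The length used was that of all exons of protein-coding transcripts, and the counts do not show which of these exons the cells used. In shCtrl-CTRL, Cyba was the highest of the 9 at 397 CPM per kb, followed by Sod1 at 293 and Rac2 at 192. Ncf1 (97.4), Rac1 (72.7), Cybb (68.4) and Ncf4 (62.5 CPM per kb) lay close together, and Cat (37.5) and Sod2 (26.8) were the lowest. In shCtrl-OGDR, Cybb stood at 214 CPM per kb, above Ncf1 at 137 and Ncf4 at 109.8. In shAnxa2-OGDR it was at 58.3 CPM per kb, below Ncf1, Ncf4 and Rac1 (104, 78.9 and 64.5).

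Most of the 9 genes followed the treatment in one direction in shCtrl cells and in the other in shAnxa2 cells. All 9 passed the filter on low counts, and the lowest value in any library was 71.5 CPM (Cat), so the filter played no part. After OGD/R in shCtrl cells, 8 of the 9 were higher and 0 lower, with a median log2 change of 0.49, where 32.4% of the 11626 genes tested were higher and 31% lower and the median of all genes was close to 0. The count of 0 was the same at an unadjusted p under 0.05 by edgeR and in DESeq2 and limma's voom. In shAnxa2 cells, 0 were higher (background 28.2%) and 7 lower (26.8%), with a median of -0.34, and the 0 again held at an unadjusted p and in the other 2 tools. With a limit of 2-fold added, only Cybb was called in each line, against 6.73% and 3.54% of all genes.

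Between the untreated lines, 7 of the 9 were higher in shAnxa2 cells (29.5% of all genes) and 0 lower (29.7%), with a median of 0.51. Both Rac1 and Cat were lower at an unadjusted p under 0.05, and DESeq2 and voom each called 1 of the 9 lower, Rac1. Cybb and Sod2 differed by at least 2-fold, as 5.68% of all genes did. After OGD/R, 1 gene, Sod1, was higher (33.8%) and 7 lower (34.2%) in shAnxa2 cells, with a median of -0.40, and Cybb alone passed 2-fold (10.1%). Comparisons that share a group of libraries are not independent of each other.

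**Figure D3:**
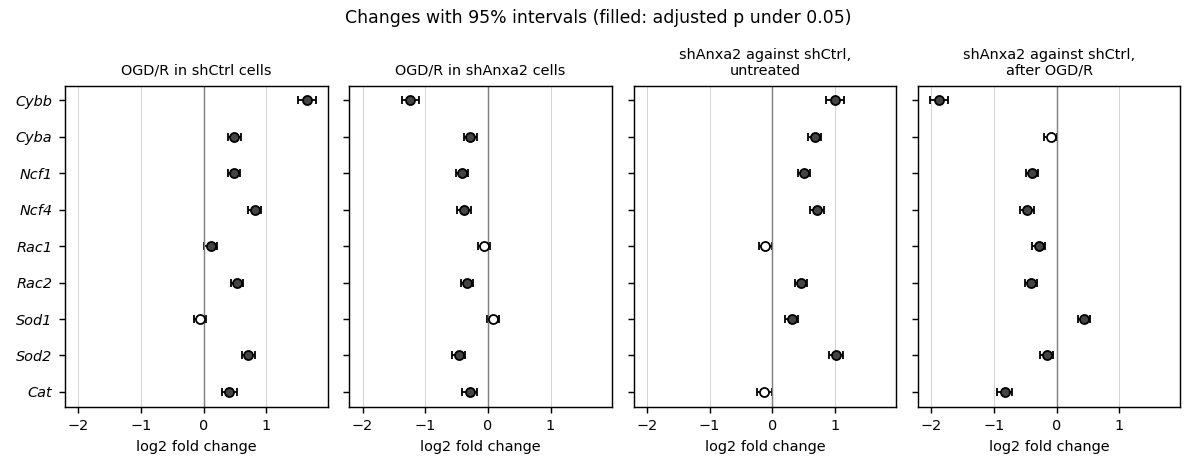
Log2 fold changes of the 9 genes (points) with 95% intervals (bars) in the 4 comparisons. Filled points passed an adjusted p under 0.05. In shCtrl cells 8 points are filled and right of 0, in shAnxa2 cells 7 are filled and left of 0, and Sod1 is open in both.

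The change of each gene after OGD/R was then compared between the lines by the interaction of line and treatment. It was lower in the shAnxa2 line for 8 of the 9 genes (35.1% of all genes) and higher for 0 (34.9%), also 0 at an unadjusted p and in DESeq2 and voom. The difference was -2.88 for Cybb (95% interval -3.08 to -2.68, adjusted p = 1.01e-17), -1.19 for Ncf4 (adjusted p = 1.04e-12) and -1.18 for Sod2 (adjusted p = 5.68e-13), the 3 genes past 2-fold, against 21.5% of all genes. It was -0.18 for Rac1 (95% interval -0.32 to -0.03, adjusted p = 0.0277), a call that was lost without shCtrl-CTRL replicate 1 (-0.12) and without shAnxa2-CTRL replicate 3 (-0.16). For Sod1 it was 0.13 (-0.01 to 0.27, adjusted p = 0.084). The changes in the 2 lines, which share no library, had opposite signs for all 9 genes, and 7 of them were called in both lines. Of all genes tested, 82% had opposite signs, and 44.4% were called in both lines with opposite signs, so opposite signs were not particular to the 9 genes.

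**Figure D4:**
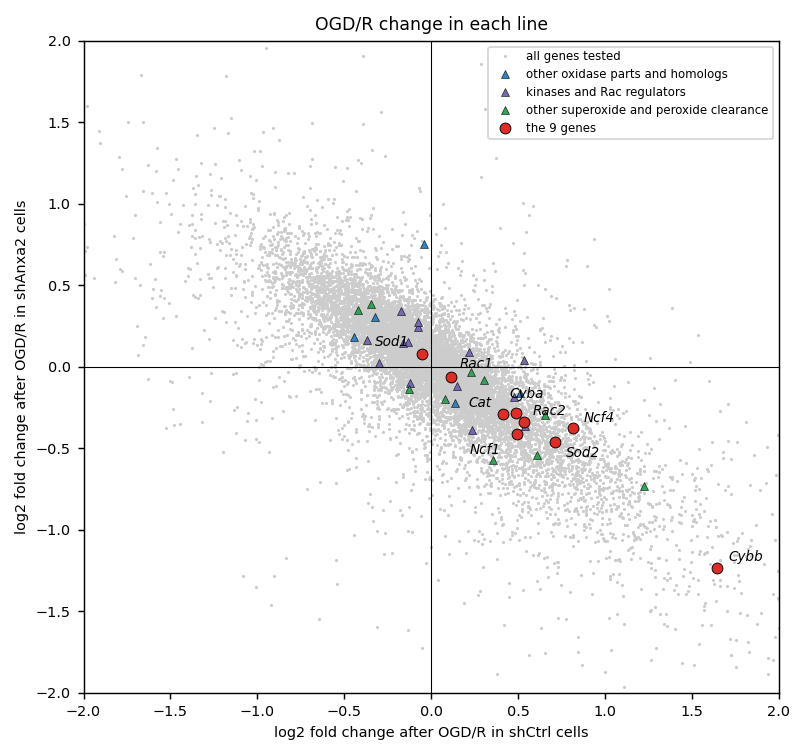
Log2 fold change with OGD/R, shCtrl line on the horizontal and shAnxa2 line on the vertical axis. Grey dots are all genes tested, except 136 outside the axes, red circles the 9 genes and triangles the other genes of the pathway. The 9 genes lie along the falling band that holds most genes, with Cybb far toward its lower right (1.65 and -1.24) and Sod1 near its centre (-0.05 and 0.08).

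The other genes of the pathway were read as 3 lists. Of 13 other oxidase parts and homologs, 5 were tested. Nox3, Nox4, Noxa1, Noxo1, Duox1, Duox2, Duoxa1 and Duoxa2 did not reach the filter on low counts. In shCtrl cells 2 rose and 1 fell after OGD/R (median log2 change -0.04, against 32.4% and 31% of all genes), and in shAnxa2 cells 1 rose and 1 fell (median 0.18, against 28.2% and 26.8%). Between untreated lines 1 was higher and 1 lower in shAnxa2 cells (29.5% and 29.7%), after OGD/R 2 and 2 (33.8% and 34.2%). Hvcn1, a proton channel that balances the charge moved by the oxidase, rose in shCtrl cells from 378, 437 and 417 counts to 567, 571 and 452 (log2 change 0.51, SE 0.084, adjusted p = 1.21e-05), with a value of -0.16 in shAnxa2 cells (adjusted p = 0.119) and an interaction of -0.67 (adjusted p = 2.79e-05). Nox1, a catalytic homolog best known from colon, had between 1 and 16 counts in every library, and none of its comparisons passed the test.

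Of 15 kinases and Rac regulators, 14 were tested, and Prkcb did not reach the filter. After OGD/R 5 rose and 5 fell in shCtrl cells (median -0.08, against 32.4% and 31% of all genes), and 5 rose and 4 fell in shAnxa2 cells (median 0.06, against 28.2% and 26.8%). These shares of the 14 genes are near those of all genes. In the interaction 7 of the 14 were higher in the shAnxa2 line and 4 lower (34.9% and 35.1% of all genes). Between untreated lines 3 were higher and 6 lower in shAnxa2 cells (29.5% and 29.7%), after OGD/R 5 and 6 (33.8% and 34.2%). In both lines 7 were called, with opposite signs (44.4% of all genes). Akt1, Mapk14 and Arhgdia fell in shCtrl cells and rose in shAnxa2 cells, and Prkcd, Prex1, Dock2 and Arhgdib did the reverse. Prkcd, a protein kinase C that phosphorylates the cytosolic subunits, moved like them. Its counts went from 4128, 4435 and 4746 to 6478, 6477 and 4690 in shCtrl cells (log2 change 0.54, SE 0.045, adjusted p = 2.5e-10) and from 4548, 4549 and 5481 to 3333, 4217 and 3594 in shAnxa2 cells (log2 change -0.36, SE 0.046, adjusted p = 3.87e-07). Prex1, an exchange factor that loads Rac with GTP, rose by 0.47 in shCtrl cells (adjusted p = 4.91e-08). In shAnxa2 cells its change was -0.18 (adjusted p = 0.00645). After OGD/R Prex1 was lower in the shAnxa2 line (log2 difference -0.88, SE 0.055, adjusted p = 7.43e-13), with 233 ± 21.5 against 430.2 ± 14.7 CPM. Tiam1, another exchange factor for Rac, had 13 to 35 counts per library. It was higher in untreated shAnxa2 than shCtrl cells (log2 difference 1.15, SE 0.32, adjusted p = 0.00324).

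Of 13 other genes of superoxide and peroxide clearance, 10 were tested, and Sod3, Gpx7 and Gpx8 did not reach the filter. In shCtrl cells 6 rose and 3 fell after OGD/R (median 0.27, against 32.4% and 31% of all genes), and in shAnxa2 cells 2 rose and 6 fell (median -0.17, against 28.2% and 26.8%). Untreated shAnxa2 cells had higher levels of 8 and lower levels of 0 (median 0.33, against 29.5% and 29.7%). After OGD/R only 2 were higher and 2 lower in shAnxa2 cells, and 6 were not called (median -0.08, against 33.8% and 34.2%). Gpx4, the glutathione peroxidase that reduces lipid peroxides in membranes, rose from 4250, 5122 and 4791 counts to 6401, 6844 and 6130 in shCtrl cells (log2 change 0.61, SE 0.066, adjusted p = 2.34e-08) and fell from 6176, 5418 and 7151 to 3885, 4952 and 3851 in shAnxa2 cells (log2 change -0.54, SE 0.067, adjusted p = 2.98e-07). Gpx1, the abundant cytosolic glutathione peroxidase, moved the other way. It fell in shCtrl cells from 5944, 6436 and 6842 counts to 4779, 5186 and 3804 (log2 change -0.34, SE 0.063, adjusted p = 4.5e-05) and rose in shAnxa2 cells from 5563, 6833 and 7822 to 7329, 9565 and 8958 (log2 change 0.38, SE 0.062, adjusted p = 1.5e-05). After OGD/R Gpx1 was higher in the shAnxa2 line by 1.04 (adjusted p = 5.67e-13), the same direction as Sod1. Gpx3, a secreted glutathione peroxidase, had only 14 to 51 counts per library. It rose in shCtrl cells (log2 change 1.23, SE 0.33, adjusted p = 0.0025), fell in shAnxa2 cells (log2 change -0.73, adjusted p = 0.0417, with overlapping libraries) and was higher in untreated shAnxa2 than in untreated shCtrl cells (log2 difference 1.59, SE 0.32, adjusted p = 0.000167).

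**Figure D5:**
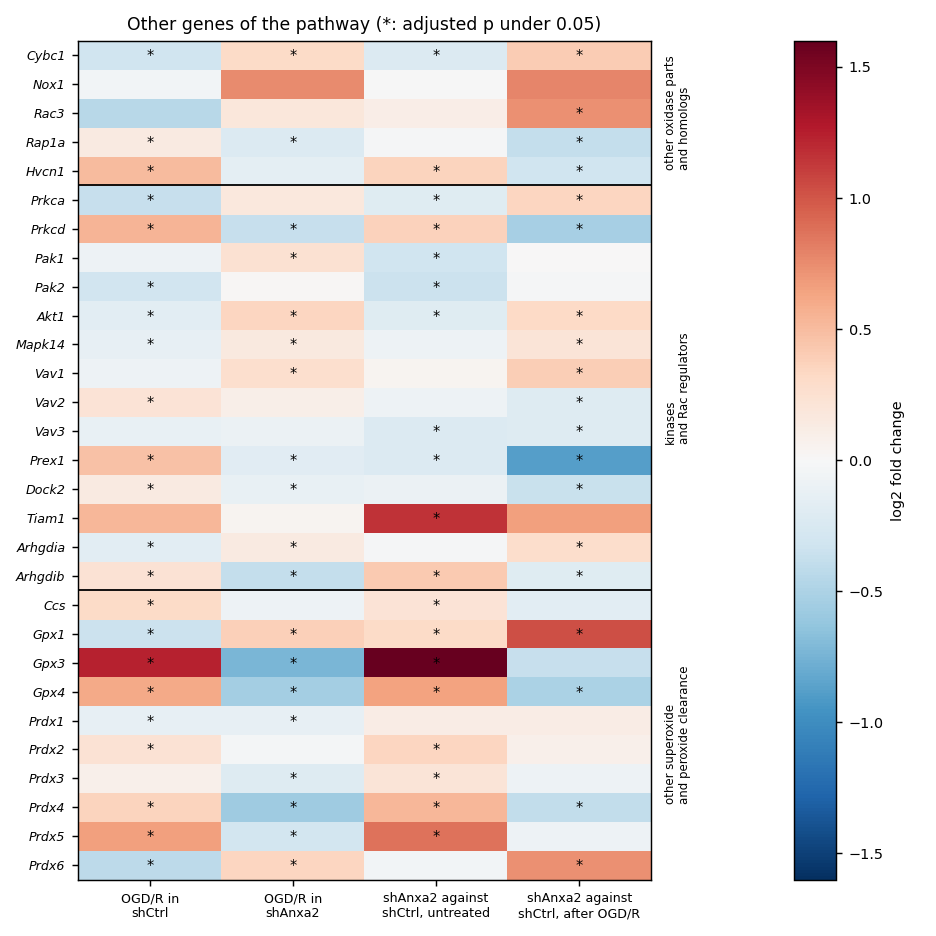
Log2 fold changes (colour scale) of the 29 tested genes of the 3 other lists in the 4 comparisons. Asterisks mark an adjusted p under 0.05. Kinases and Rac regulators changed in both directions, Gpx1 runs opposite to Gpx4, and Gpx3 has the darkest red (1.23 and 1.59).

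Over the 12 libraries, the genes whose log2 level ran most like that of Cybb included Vnn3 (Pearson's r 0.994), Echs1 (0.993), Ahnak2 (0.991) and Scaper (0.99). Those most like Sod2 were Hp (0.994), Tnfrsf1b (0.989), Slc15a3 (0.986), Psmd10 (0.982) and Plpp1 (0.981). Among the 9 genes, the pattern of Cybb was closest to Rac2 (0.913) and Ncf1 (0.906), and that of Sod2 to Cyba (0.96). The libraries fall into 4 groups that set most of these values, so they describe the order of the groups. Cybb and its nearest genes peaked in shCtrl-OGDR, as Vnn3 did with means of 1.24, 18.3, 6.82 and 0.830 CPM in shCtrl-CTRL, shCtrl-OGDR, shAnxa2-CTRL and shAnxa2-OGDR. Sod2 and Tnfrsf1b, a receptor for tumour necrosis factor, peaked in shAnxa2-CTRL, with 324, 527, 594 and 459 CPM for Tnfrsf1b in the same order.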

How the data were processed

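BV2 libraries were grouped by their titles. For each gene, the authors deposited raw read counts. The GEO processing fields name HISAT2 2.0.4 and mm39, while the paper describes sequencing of hippocampi with other tools. For BV2 cells the methods describe a longer reoxygenation than the labels do, and the label was used. The handling of strand and of reads that map to several places is not given in the sources used here. The table also holds 12 per-sample columns of scaled counts, which were not used. The total counts per library set the depth, and the methods call the 3 libraries of a group biological replicates.

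Genes that reached 0.5 CPM in 3 or more libraries (11626) were tested with edgeR 4.0.16 in R 4.3.3 (TMM scaling, 1 quasi-likelihood model of the 4 groups over 12 libraries, Benjamini-Hochberg adjustment over all genes, limit 0.05). The common biological coefficient of variation was 5.35%. The SE is the log2 change divided by the square root of F. Lengths are the union of exons of protein-coding transcripts (GENCODE, GRCm38, matched by Ensembl identifier). The shares had exact permutation tests. On simulated counts for OGD/R in shCtrl cells, with 11520 genes tested, 91.84% of 98 genes changed by 2-fold and 86.73% of 98 genes changed by less were called, and 15 of 190 calls were unchanged genes. That share of wrong calls is above the limit of 0.05. The simulation changed few genes, in 1 group only, while 32.4% of genes were called higher and 31% lower in the data. It therefore cannot check the scaling or the error rate for these data.

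The members and lists were chosen with earlier results of these data known. All 9 genes are named, and of the other lists the genes called past 2-fold in a comparison and those with the largest interactions. In the lists of oxidase parts and of kinases and Rac regulators, genes called in both lines with opposite signs are named too. A single gene of the other oxidase parts, left out of that list's counts, and another among those most like Cybb are not reported here. The alternatives were other scalings and filters, DESeq2 1.42.0, voom in limma 3.58.1, a replicate block, fits of 2 groups only, other limits, shares of counts, and leaving out each library. In genes with close relatives, such as Rac1, Rac2 and Rac3, reads that match more than 1 gene could have been split or dropped.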

Additional observations from a re-analysis of the deposited data

Results flagged for a closer look

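The OGD/R change differed between the lines, by the interaction of line and treatment in edgeR, for 8 of the 9 genes, all lower in shAnxa2 cells. Of all genes tested, 35.1% were called lower and 34.9% higher. Each value is the log2 change in shAnxa2 cells minus that in shCtrl cells. For the oxidase subunits it was -2.88 (Cybb), -0.77 (Cyba), -0.91 (Ncf1) and -1.19 (Ncf4), for the GTPases -0.18 (Rac1) and -0.87 (Rac2), and for the clearance enzymes -1.18 (Sod2) and -0.70 (Cat). The adjusted p was 1.25e-09 for Cyba, 1.35e-11 for Ncf1, 2.66e-11 for Rac2 and 4.62e-08 for Cat. Opposite signs of the change in the lines were found for 82% of all genes tested. Exchanged treatment labels within 1 line would also give opposite signs, which was not tested. Line and knockdown cannot be told apart, as each shRNA was represented by 1 line.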

How the results depend on the processing

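Over 21 settings, 917 of 936 values for the 9 genes kept their direction and side of the limit, 11 lost a call, 8 gained one and none reversed. The largest shift was 0.089 on the log2 scale. The median change of all genes stayed between -0.078 and 0.0395. Rac1 after OGD/R in shCtrl cells was lost with median-of-ratios factors (adjusted p = 0.0565), no filter (0.0809) and the replicate block (0.0512), and when any 1 of 6 libraries was left out (shCtrl-CTRL replicate 1, shCtrl-OGDR replicates 1, 2 and 3, shAnxa2-CTRL replicates 1 and 2), with values of 0.06 to 0.118. Rac1 between untreated lines passed with DESeq2 (0.0465), with voom (0.0469) and without shCtrl-CTRL replicate 1 (-0.16, 0.00977). The other changed calls, of Cyba and Cat between lines and of Rac1 in the interaction, are given with those genes.

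With the 2-fold limit the counts of genes called fell to 1 higher in shCtrl cells after OGD/R, 1 lower in shAnxa2 cells, 2 higher between untreated lines, 0 higher and 1 lower between lines after OGD/R, and 3 lower in the interaction. Genes lower in untreated shAnxa2 cells numbered 1 with DESeq2 and with voom, and 0 to 1 when each library was left out. With shares taken from counts and not per length, the Rac2 share differed by -3.83 percentage points after OGD/R in shAnxa2 cells and by 8.25 between untreated lines. The Sod2 share then differed by 9.83 after OGD/R in shCtrl cells, -7.78 in shAnxa2 cells and 14.3 between untreated lines. Between lines after OGD/R its exact permutation p was 0.2 on counts. Shares of counts weigh longer genes more by construction.

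Deviations of same-numbered libraries correlated with r of -0.05 to 0.132 and 1 of 18 pairs was over 0.1, and 6 of 12 libraries correlated best with their own number, so the numbers were not taken to pair the libraries. With the replicate block, 7 genes in place of 8 were higher in shCtrl cells after OGD/R (Rac1 lost), and no other call on the 9 genes changed. No batch is named in the labels, and any that coincides with a group would be inseparable from it.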
